A study of Mus musculus with 6 samples.

Results

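The organic ion transporters and ATP-binding cassette (ABC) pumps form 95 of the 18193 genes measured in kidney tissue of Fh1 knockout and wild-type mice. They are the genes whose symbol begins with Slc22a, Slco, Slc47a, Slc28a, Slc29a, Slc17a, Slc10a, Abca, Abcb, Abcc, Abcd or Abcg and that have at least 1 array probe set named for a single gene. Where a gene had several such probe sets, the one of highest mean signal stands for it. Uptake families (Slc22a, Slco, Slc10a, Slc28a and Slc29a) hold 46 of the genes and export families (Slc47a, Abca, Abcb, Abcc and Abcg) hold 39. The other 10 are the Slc17a carriers of vesicles, lysosomes and apical membranes and the Abcd transporters of peroxisomes and lysosomes.

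The study compared macro-dissected renal epithelium of 3 Fh1 knockout samples, whose tissue was cystic, with 3 samples of disease-free wild-type littermates, each on 1 Affymetrix array. Fh1 encodes fumarate hydratase, the tricarboxylic acid cycle enzyme that converts fumarate to malate. The design asks how expression in the cystic knockout kidney departs from that of littermates. The sources used here do not give the strain, the age or what drives the deletion and in which cells, and no treatment is named for either group. Nothing in the labels says that the samples came from separate animals, so p-values reflect only how these samples vary, which may be technical variation.

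The proximal tubule clears drugs, toxins and metabolites by moving them from blood to urine. Basolateral carriers of the Slc22a family take up organic anions by exchange for dicarboxylates and organic cations along the membrane potential, and Slco carriers take up bile acids, steroid conjugates, thyroid hormone and prostaglandins. The apical cation and proton exchanger Slc47a1 and the ABC pumps, which spend ATP, pass substrates on to the urine, and apical urate carriers return urate to the cell.

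Values are log2 expression values made by RMA, the robust multi-array average, and the 6 values of a gene are given in the order of wild-type arrays 1, 2 and 3 and knockout arrays 1, 2 and 3. A gene was called higher or lower in knockout when its adjusted p in limma, over all 18193 genes, was below 0.05. RMA gives no detection call, so genes with low values cannot be separated from background and their changes are compressed. Array medians ran from 6.2 to 6.25. Fh1 itself fell from 12.32 to 11.58 (log2 change -0.74, SE 0.08, adjusted p = 0.000396). Whether its probe set lies in the deleted stretch is not given in the sources used here.

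Wild-type array 2 stood apart from the other 5 arrays in sex-linked genes, although the design describes the groups as matched for sex. Xist, the RNA that silences an X chromosome in females, read 11.96 there and 5.61 to 7.97 elsewhere. The Y-linked genes read 4.38 for Kdm5d and 5.86 for Uty there, against at least 7.25 and 7.34 on the other arrays, and Eif2s3y was lowest there too. Since several of these transporters also differed on that array, results below are given with and without it.

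Proximal tubule markers were present and lower in knockout. Of 19 measured, 16 fell, 1 (the glucose carrier Slc5a1) rose and Slc13a1 and Aqp1 did not pass the test, with a median log2 change of -1.50. Their mean level ran from 12.34 to 12.39 on the wild-type arrays and from 10.80 to 11 on the knockout arrays. Loop and distal tubule markers fell in 8 of 9 cases (median -1.19), collecting duct markers in 5 of 10 (-0.49), podocyte markers in 2 of 4 (-0.62) and endothelial markers in 8 of 11, with 1 higher (-0.60). Immune markers rose in 18 of 20 cases (median 1.74, mean level 7.16 to 7.39 in wild-type and 8.71 to 8.91 in knockout), matrix markers in 10 of 15 (1.30) and tubular injury markers in 11 of 11 (2.74). Hepatocyte markers fell in 4 and rose in 2 of 8 cases (-0.37), and adrenal cortex markers fell in 2 of 6 (-0.31). Of all genes tested, 27.7% fell and 21.6% rose. The part of these lists in the transporter results was not tested. In this bulk tissue, fewer cells of a type and less RNA per cell cannot be told apart.

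More transporters fell than rose in the knockout kidney. Of the 95 genes, 47 (49.5%) fell and 9 (9.47%) rose, against 27.7% and 21.6% of all genes tested, and 39 did not pass the test. Their median log2 change was -0.36, against -0.11 for all genes. At least 2-fold falls were called for 21 members (22.1%), against 3.39% of all genes, and at least 2-fold rises for 4 members (4.21%), against 5.44%. Each knockout value was under each wild-type value for 61 members (64.2%), where 37.1% of all genes did so, and over each of them for 10 members (10.5%), where 25.7% did.

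The counts of falls changed little without wild-type array 2, which left 45 members lower (47.4%, against 26.4% of all genes) and 10 higher (10.5%, against 21.2%). At least 2-fold changes were then called for 22 lower members (23.2%, against 3.59%) and 5 higher members (5.26%, against 5.75%). Of the 56 members called with all arrays, 53 were called again without this array, Abcc8, Slc28a3 and Slco6d1 were not, and Abcc3 and Slc22a29 joined. Falls numbered 45 without wild-type array 1 and 44 without wild-type array 3. They numbered 39 without knockout array 1 or 2 and 38 without knockout array 3. The count of rises was less stable. It was 5 without wild-type array 1 or knockout array 2, 6 without knockout array 1 or 3 and 7 without wild-type array 3. The shares of all genes called with these arrays left out are not given here. In all, 41 of the 56 called members kept their call whichever array was left out.

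The falls were found mainly among the brighter transporters. Of the 53 members at or above the median signal of all genes (7.37), 33 were lower and 6 higher, where 24.8% and 31.4% of all genes of that brightness were. Of the 42 dimmer members, 14 were lower and 3 higher, where 30.5% and 11.7% of dim genes were.

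**Figure D1:**
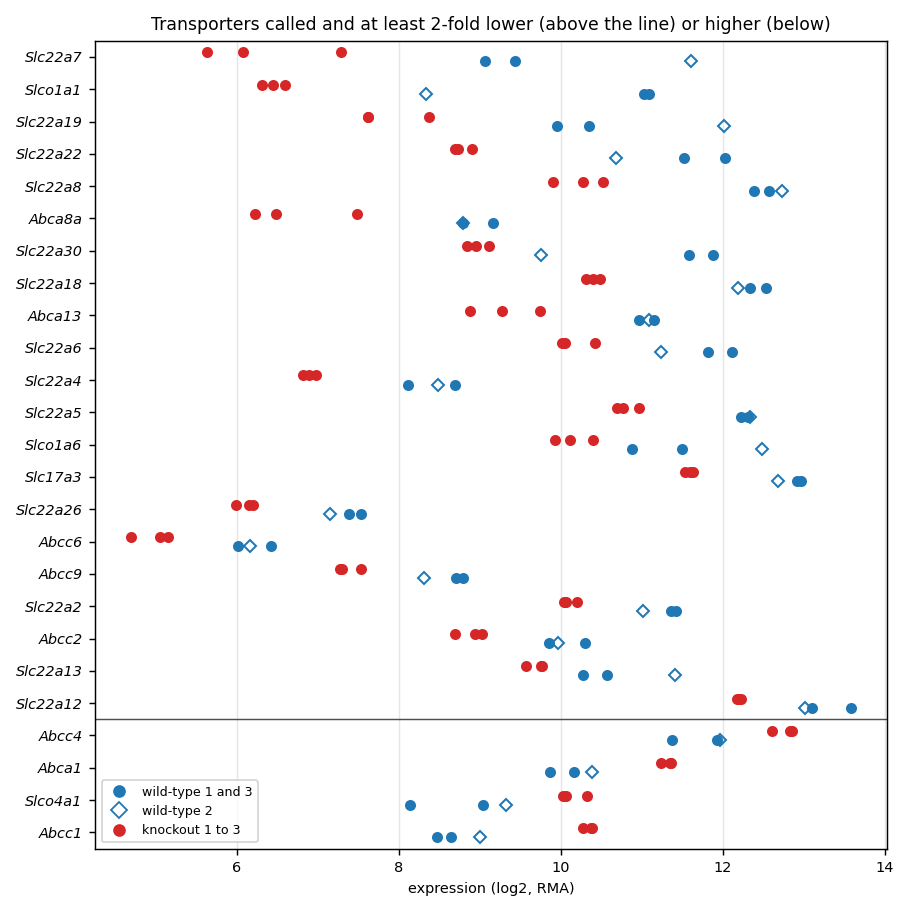
Log2 expression on each array (horizontal axis) for the 25 transporters called and changed at least 2-fold, 21 lower above the line and 4 higher under it; blue circles are wild-type arrays 1 and 3, the open blue diamond is wild-type array 2 and red circles are the 3 knockout arrays. In every row the knockout points lie to one side of all wild-type points, and the open diamond lies far from the filled blue circles for Slc22a7, Slco1a1, Slc22a19 and Slc22a30.

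Uptake families held most of the falls. Of 46 uptake genes, 27 (58.7%) fell and 4 (8.70%) rose, where 27.7% and 21.6% of all genes did, with a median of -0.51. At least 2-fold, 15 (32.6%) fell and 1 (2.17%) rose, where 3.39% and 5.44% of all genes did. The rises among them, in Slc22a21, Slco2a1, Slco4a1 and Slc10a7, numbered 2 when any array other than wild-type array 2 was left out. In the Slc22a family 15 of 21 genes (71.4%) fell, 13 of them (61.9%) at least 2-fold, 1 rose and 5 did not pass the test, with a median of -1.33.

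The organic anion carriers of the basolateral membrane were led by Slc22a6 (OAT1) and Slc22a8 (OAT3), which take up drugs such as penicillins and diuretics. Slc22a8 read 12.39, 12.73 and 12.57 in wild-type and 10.28, 9.90 and 10.52 in knockout, a 5.03-fold fall (log2 change -2.33, SE 0.17, adjusted p = 5.74e-05). Slc22a6 read 11.82, 11.24, 12.11 and 10.05, 10.02, 10.42, a 2.95-fold fall (-1.56, SE 0.22, adjusted p = 0.00109). The groups did not overlap for either gene, and the second probe set of each was called lower too.

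Slc22a7 (OAT2), which carries organic anions and cyclic nucleotides, was among those with the largest falls. It read 9.43, 11.61, 9.07 and 7.29, 6.08, 5.63, a 13.1-fold fall (-3.71, SE 0.68, adjusted p = 0.00374), or 7.56-fold without wild-type array 2 (-2.92). The groups did not overlap, and wild-type array 2 was the highest of the 6. Slc22a19 (OAT5), an apical anion exchanger, read 10.35, 12.01, 9.96 and 8.38, 7.62, 7.62, a 7.45-fold fall (-2.90, SE 0.50, adjusted p = 0.00275). Slc22a22, a prostaglandin-carrying anion transporter, read 12.03, 10.68, 11.52 and 8.70, 8.73, 8.90, a 6.21-fold fall (-2.63, SE 0.30, adjusted p = 0.000405). Wild-type array 2 gave the highest wild-type value of Slc22a19 and the lowest of Slc22a22, and neither gene's groups overlapped. The rodent anion transporter relatives Slc22a30 (-2.10, adjusted p = 0.0102) and Slc22a26 (-1.25, adjusted p = 0.000167) also fell. So did Slc22a18, an imprinted member of broad substrate range, by 3.87-fold from values of 12.33, 12.19, 12.53 to 10.40, 10.31, 10.48 (-1.95, SE 0.11, adjusted p = 2.45e-05).

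The apical urate carriers of this family fell too. Slc22a12 (URAT1), which recovers urate from the filtrate, read 13.10, 13.01, 13.58 and 12.17, 12.20, 12.22, a 2.05-fold fall (-1.03, SE 0.15, adjusted p = 0.00116). Slc22a13 (OAT10), a urate and nicotinate carrier, fell by 2.07-fold (-1.05, SE 0.26, adjusted p = 0.0130), and by 1.65-fold without wild-type array 2, whose value of 11.41 was its highest. The groups did not overlap for either gene.

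Cation and carnitine carriers moved both ways. Slc22a2 (OCT2), the basolateral entry for cations such as metformin, read 11.42, 11.01, 11.36 and 10.07, 10.04, 10.20, a 2.23-fold fall (-1.16, SE 0.12, adjusted p = 0.000279). Slc22a5 (OCTN2), the carnitine carrier, read 12.23, 12.34, 12.31 and 10.77, 10.69, 10.96, a 2.80-fold fall (-1.48, SE 0.10, adjusted p = 4.21e-05). Slc22a4 (OCTN1), which carries ergothioneine, fell by 2.90-fold (-1.54, SE 0.15, adjusted p = 0.000182). Slc22a21 (Octn3) lies between those genes on chromosome 11 and rose: 5.05, 4.96, 5.04 and 6.07, 5.87, 5.89, a 1.90-fold rise (0.92, SE 0.09, adjusted p = 0.000182). Its groups did not overlap and it kept the call whichever array was left out, at values near the low end of the arrays. Slc22a23 (-0.70) and Slc22a16 (-0.53) fell too, while Slc22a14 (-0.31, adjusted p = 0.0501), Slc22a17 (-0.36, adjusted p = 0.0742) and Slc22a15 (0.12, adjusted p = 0.236) did not pass the test. The other Slc22a15 probe set was called higher (0.52, adjusted p = 0.0313).

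**Figure D2:**
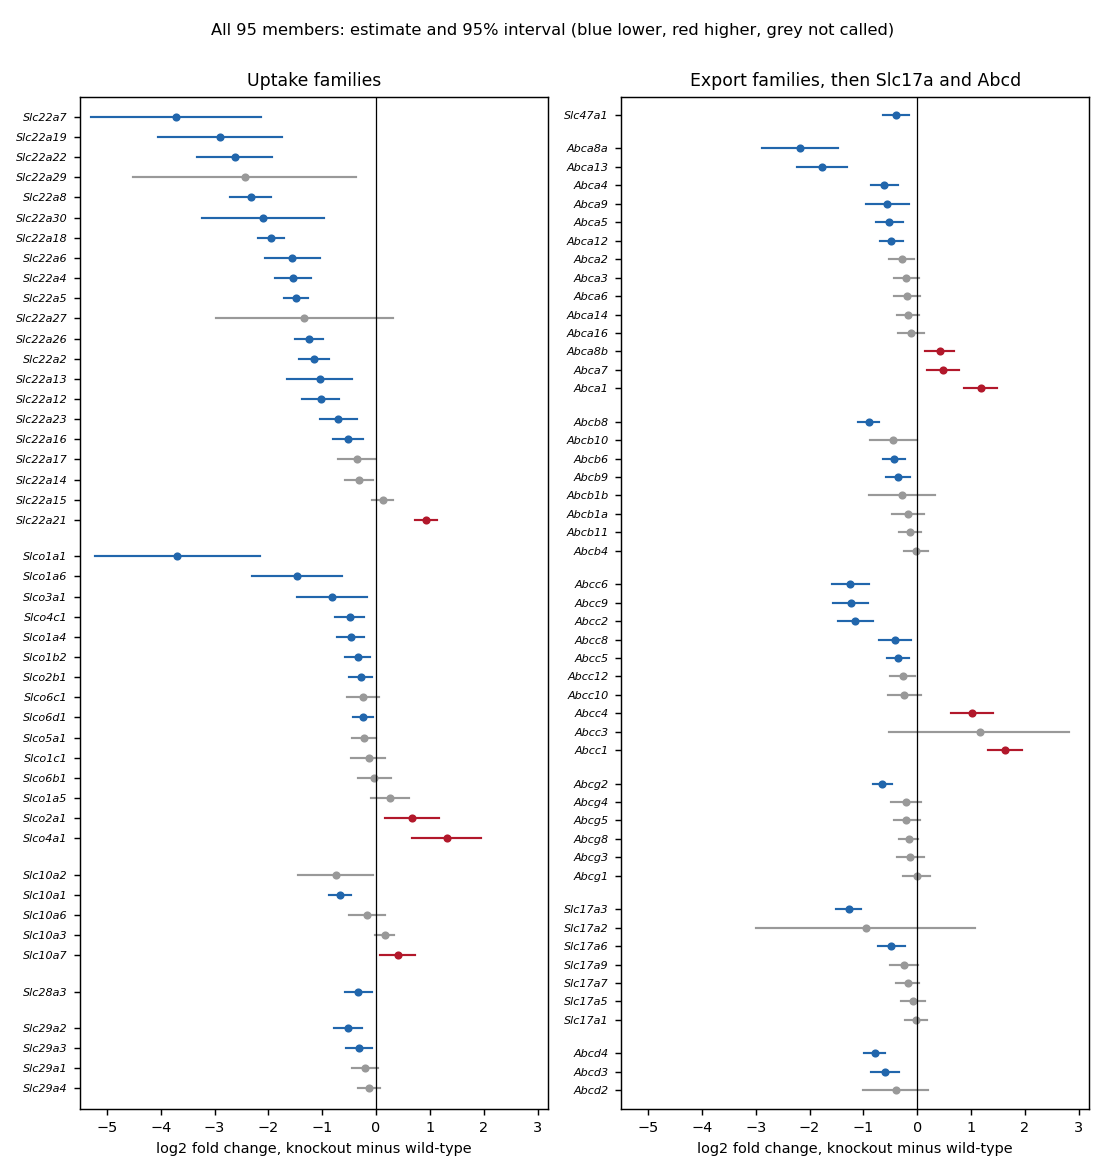
Log2 change in knockout against wild-type (horizontal axis) with its 95% interval for all 95 transporters, uptake families on the left and the others on the right, ordered within each family; blue genes were called lower, red higher and grey not called. Slc22a genes reach from -3.71 to 0.92, while Abcb, Abcg and Slc29a genes stay between -0.90 and -0.01.

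In the Slco family 8 of 15 genes (53.3%, against 27.7% of all genes) fell, 2 (13.3%, against 21.6%) rose and 5 did not pass the test. Slco1a1, an apical carrier of bile acids and steroid conjugates, read 11.09, 8.34, 11.03 and 6.60, 6.45, 6.32, a 13.0-fold fall (-3.70, SE 0.66, adjusted p = 0.00334). Without wild-type array 2, its lowest wild-type value, the fall was 24.3-fold (-4.60, SE 0.11, adjusted p = 8.28e-06). Its second probe set was also called lower. Slco1a6, a kidney carrier of the same subfamily, read 11.50, 12.48, 10.88 and 10.40, 9.93, 10.11, a 2.77-fold fall (-1.47, SE 0.36, adjusted p = 0.0123), or 2.06-fold without array 2, where it read highest. Smaller falls were called for the basolateral Slco4c1 (-0.49, adjusted p = 0.0114) and for Slco1a4 (-0.47, adjusted p = 0.00898).

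Slco3a1 (-0.82, adjusted p = 0.0425), Slco2b1 (-0.28), Slco1b2 (-0.34) and Slco6d1 (-0.24) were called lower but lost the call when single arrays were left out. For Slco3a1 and Slco2b1 this held for every array but wild-type 2, for Slco1b2 for each knockout array, and for Slco6d1 for every array but wild-type 3. Of the other probe sets of Slco3a1, at -0.31 and 0.14, and of Slco1b2, at -0.16 to -0.04, none was called, and on the mean of all sets both genes lost the call (-0.33 and -0.16). Both other sets of Slco2b1 were called lower, at -0.51 and -0.54. The family's count of falls was 4 without any 1 of the knockout arrays and 5 without wild-type array 1. Slco1a5 (0.26, adjusted p = 0.187) and 4 further genes, at changes from -0.25 to -0.03, did not pass the test.

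The Slco genes called higher were Slco4a1 and Slco2a1. Slco4a1, a thyroid hormone carrier, read 9.04, 9.32, 8.14 and 10.07, 10.03, 10.33, a 2.48-fold rise (1.31, SE 0.28, adjusted p = 0.00676). The probe set behind these values bears the array maker's suffix for sets that may bind other transcripts. The gene's other set was called higher by less than 2-fold (0.81, adjusted p = 0.0124). Slco2a1, the prostaglandin transporter, read 8.26, 9.14, 8.34 and 9.30, 9.21, 9.25, a 1.60-fold rise (0.67, SE 0.22, adjusted p = 0.0338). For Slco2a1, wild-type array 2 at 9.14 stood just under the lowest knockout value of 9.21. Its call was kept only when that array was the one left out (log2 change then 0.95). Of the 3 other Slco2a1 probe sets, 1 was called higher (0.30, adjusted p = 0.0459) and 2 were not called (0.15 and 0.42).

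In the Slc10a, Slc28a and Slc29a families no change reached 2-fold. Slc10a2, the apical sodium-dependent bile acid carrier, read 7.85, 8.79, 7.44 and 7.21, 7.29, 7.31 and did not pass the test (-0.75, adjusted p = 0.0681; -0.37 and 0.0538 without wild-type array 2). Slc10a1, its relative of liver, fell by 1.59-fold at low values (-0.67, adjusted p = 0.000943), and Slc10a7 was called higher (0.40, adjusted p = 0.0480), a call that was kept only when wild-type array 2 was the one left out. Its 3 other probe sets were not called, at -0.13 to -0.08, and the mean of all its sets was at 0.02 (adjusted p = 0.825). Slc10a6 (-0.17) and the remaining member (0.16) did not pass. Of the nucleoside carriers, Slc29a2 fell (-0.53, adjusted p = 0.00662). Slc29a3 of lysosomes (-0.31) and the concentrative Slc28a3 (-0.33) were called lower by calls that most left-out arrays ended, all but wild-type 2 for Slc29a3 and wild-type 1, wild-type 2, knockout 2 or knockout 3 for Slc28a3. The mean of all Slc28a3 probe sets was not called either (-0.18). The other Slc29a3 probe set was called lower (-0.64, adjusted p = 0.00248). Slc29a1 (-0.20, adjusted p = 0.133) and Slc29a4 (-0.13, adjusted p = 0.228) did not pass.

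More genes of the export families fell than rose. Of 39 genes, 16 (41.0%, against 27.7% of all genes) fell, 5 (12.8%, against 21.6%) rose and 18 did not pass the test, with a median of -0.27. At least 2-fold, 5 (12.8%, against 3.39%) fell and 3 (7.69%, against 5.44%) rose. The counts include Abcb6, Abcb8, Abcb9 and Abcb10 of intracellular membranes and the potassium channel subunits Abcc8 and Abcc9. Of these, all but Abcb10 were among the falls, Abcc9 by at least 2-fold. Without wild-type array 1 or knockout array 2 the rises numbered 3. Among the apical pumps, Abcc2 (MRP2), which exports glutathione and glucuronide conjugates, read 10.30, 9.97, 9.85 and 9.03, 8.69, 8.94, a 2.22-fold fall (-1.15, SE 0.14, adjusted p = 0.000579). Abcg2, a pump of urate and many drugs, read 13.10, 12.97, 12.98 and 12.39, 12.37, 12.36, a 1.57-fold fall (-0.65, SE 0.08, adjusted p = 0.000533). Slc47a1 (MATE1), which secretes cations, read 13.10, 12.90, 13.20 and 12.80, 12.58, 12.62, a 1.32-fold fall (-0.40, SE 0.11, adjusted p = 0.0185) that lost its call without knockout array 2 or 3. In all 3 genes the groups did not overlap. The P-glycoprotein genes did not pass: Abcb1a read 7.82, 8.02, 7.85 and 7.56, 7.99, 7.63 (-0.17, adjusted p = 0.288), and Abcb1b 9.35, 10.32, 9.25 and 9.52, 9.33, 9.25 (-0.28, adjusted p = 0.395). Wild-type array 2 was the highest for both.

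Abcc4 (MRP4), an apical pump of cyclic nucleotides, urate and prostaglandins, rose: 11.37, 11.96, 11.93 and 12.83, 12.85, 12.61, a 2.01-fold rise (1.01, SE 0.17, adjusted p = 0.00236). The basolateral pump Abcc1 (MRP1), which exports glutathione conjugates and leukotrienes, rose most of all members: 8.47, 9.01, 8.64 and 10.38, 10.37, 10.28, a 3.11-fold rise (1.63, SE 0.14, adjusted p = 0.000106). Neither gene's groups overlapped, and the second probe set of Abcc1 was also called higher. Abcc3 (MRP3), a basolateral pump of glucuronides and bile acids, read 6.62, 9.47, 6.38 and 8.75, 8.60, 8.59. With all arrays it did not pass (1.16, SE 0.72, adjusted p = 0.208). Its knockout values lay above wild-type arrays 1 and 3 and below wild-type array 2, and without that array it was called 4.42-fold higher (2.15, adjusted p = 3.25e-05).

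The promoter windows of Abcc2, which fell, and Abcc4, which rose, both hold the letters TGACNNNGC, the core of the antioxidant response element bound by NRF2. They are shown because the 2 apical pumps carry the same core and moved in opposite directions. The sequences come from RefSeq's promoter windows of GRCm38.p6 and are written 5′ to 3′ on the gene's strand, with the motif in capitals.
Abcc2, chr19:43782160-43782268, plus strand: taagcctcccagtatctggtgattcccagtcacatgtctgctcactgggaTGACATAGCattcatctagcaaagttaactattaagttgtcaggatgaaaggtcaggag
Abcc4, chr14:118676932-118677004, minus strand: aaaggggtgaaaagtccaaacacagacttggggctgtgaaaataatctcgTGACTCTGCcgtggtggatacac
Searched on both strands over 300 bases (250 before to 50 after the start), the core was in 12 of the 78 members with a window (15.4%) and in 14.0% of 27025 gene symbols. Of the 12, 4 fell, 2 rose (Abcc4 and Abca8b) and 6 did not pass the test. The HNF4-type letters CAAAGTCCA or CAAAGGTCA were in 1 member (Abcd3, 1.28%) and 1.1% of all symbols. The HNF1 half-site letters GTTAAT were in 5 members (6.41%) and 8.24% of all symbols. Of these 5, Slc22a6, Slc22a8 and Slco1b2 were called lower, and Slc10a2 and Slc22a29 did not pass the test. A match is a description of these letters only, and 17 members had no window.

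The rest of the Abcc family fell or did not pass. Abcc6, whose loss causes ectopic calcification, fell by 2.36-fold (-1.24, SE 0.15, adjusted p = 0.000538) and Abcc9, the regulatory subunit of potassium channels of muscle and vessel wall, by 2.35-fold (-1.23, SE 0.14, adjusted p = 0.000416). Abcc8, the subunit of the beta cell channel, was called lower (-0.42, adjusted p = 0.0299), as was Abcc5 (-0.36, adjusted p = 0.0147). The Abcc8 call was lost without wild-type array 2 or 3 or knockout array 1 or 2, and that of Abcc5 without knockout array 3. Abcc5 was the 1 member of the 48 with several probe sets that had another set called the opposite way: of its 9 other sets, 1 was higher, 1 lower and 7 not called, and the mean of all sets was not called (-0.05, adjusted p = 0.537). Abcc10 (-0.24) and 1 further member (-0.27) did not pass.

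In the Abca family of lipid transporters, 6 of 14 genes fell (42.9%, against 27.7% of all genes) and 3 rose (21.4%, close to the 21.6% of all genes). Abca1, which loads cholesterol onto apolipoprotein A-I, read 10.16, 10.39, 9.87 and 11.35, 11.24, 11.36, a 2.26-fold rise (1.18, SE 0.13, adjusted p = 0.000411), and its other probe sets were called higher too. Abca7, a phospholipid exporter, rose from 7.05, 7.39, 7.20 to 7.85, 7.76, 7.48 (0.48, adjusted p = 0.0177), and Abca8b rose at low values (0.42, adjusted p = 0.0207). Groups did not overlap for any of them, but leaving out wild-type array 1 or knockout array 2 ended both smaller calls, leaving out knockout array 1 that of Abca7 and knockout array 3 that of Abca8b. Abca8a, next to Abca8b on chromosome 11, read 9.16, 8.79, 8.80 and 6.23, 6.49, 7.49, a 4.54-fold fall (-2.18, SE 0.30, adjusted p = 0.00101). Abca13 read 10.96, 11.09, 11.15 and 9.28, 8.88, 9.74, a 3.40-fold fall (-1.77, SE 0.20, adjusted p = 0.000391). Knockout array 3 was the highest of its group for Abca8a and Abca13. Abca4 (-0.61), Abca5 (-0.52), Abca12 (-0.48) and Abca9 (-0.56, a call lost without wild-type array 1 or 3 or knockout array 1 or 2) also fell. Abca2 (-0.28, adjusted p = 0.0513) and Abca3 (-0.20, adjusted p = 0.130), with Abca6 (-0.19) and 2 further members (-0.17 and -0.11), did not pass. Of the other Abca3 probe sets, 1 was called lower (-0.51, adjusted p = 0.00187) and 1 was not called (0.13). The Abca5 call was lost on the mean of its probe sets (-0.13).

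The remaining Abcb and Abcg genes and the Abcd genes fell by less than 2-fold or did not pass. Mitochondrial Abcb8 fell by 1.87-fold (-0.90, SE 0.08, adjusted p = 0.000170), Abcb6, a porphyrin transporter, by 1.35-fold (-0.43, adjusted p = 0.00571), and lysosomal Abcb9 by 1.29-fold (-0.36, adjusted p = 0.0157), the last lost without knockout array 1 or 3. Both other Abcb9 probe sets were called lower, at -0.57 and -0.58. Mitochondrial Abcb10 (-0.45, adjusted p = 0.0794), and Abcb4 and Abcb11, the phospholipid and bile salt pumps of liver (-0.02 and -0.13), did not pass. Of the other Abcb10 probe sets, 1 was called lower (-0.58, adjusted p = 0.00905) and 1 was not called (-0.42). Lysosomal Abcd4, a vitamin B12 transporter, fell by 1.73-fold (-0.79, adjusted p = 0.000317) and peroxisomal Abcd3 by 1.51-fold (-0.59, adjusted p = 0.00467), whereas Abcd2 (-0.40, adjusted p = 0.229) did not pass. Of the 3 other Abcd2 probe sets, 1 was called lower (-0.62, adjusted p = 0.00365) and 2 were not called. The sterol pumps Abcg1, Abcg4, Abcg5 and Abcg8 did not pass, nor did 1 further member, at changes from -0.21 to -0.01.

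The Slc17a urate and phosphate carriers differed among themselves. Slc17a3 (NPT4), which passes urate and anions across the apical membrane, read 12.97, 12.68, 12.92 and 11.60, 11.53, 11.63, a 2.41-fold fall (-1.27, SE 0.10, adjusted p = 8.34e-05). Its neighbour on chromosome 13, Slc17a1 (NPT1), read 13.11, 12.91, 12.96 and 13.01, 12.99, 12.89 and did not pass (-0.03, 95% interval from -0.23 to 0.18, adjusted p = 0.799). Slc17a2, in the same run, read 4.81, 8.81, 5.77 and 5.62, 5.54, 5.34, with only wild-type array 2 high (-0.96, adjusted p = 0.377; 0.21 without that array). Slc17a6, a vesicular glutamate carrier, fell at low values (-0.48, adjusted p = 0.00969). The sialic acid exporter Slc17a5 (-0.08) and 2 further members (-0.18 and -0.24) did not pass.

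**Figure D3:**
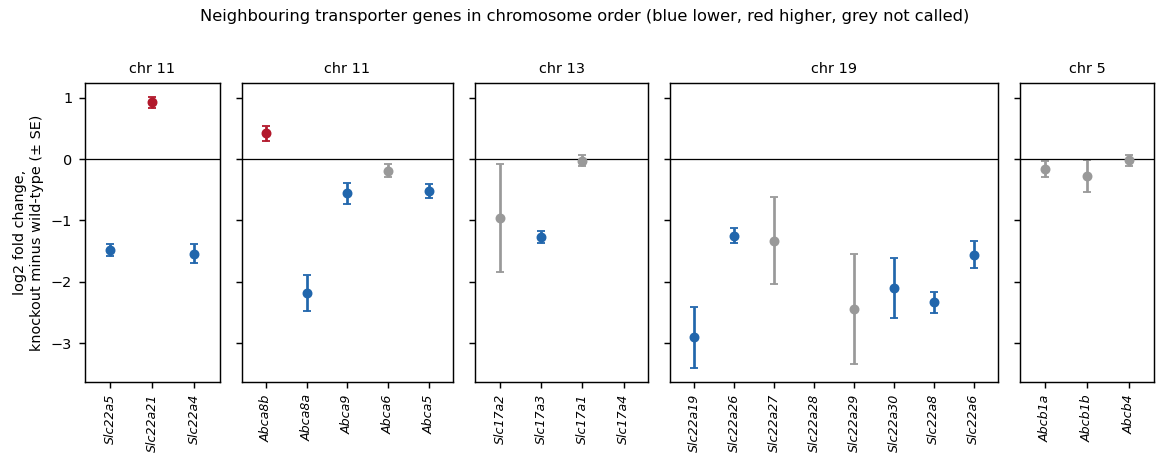
Log2 change in knockout against wild-type (vertical axis, bars are SE) of transporter genes that lie next to each other, in chromosome order, for the 5 runs with at least 3 measured genes; blue genes were called lower, red higher and grey not called, and a gap marks a gene with no single-symbol probe set. Slc22a21 (0.92) lies between Slc22a5 (-1.48) and Slc22a4 (-1.54), and Abca8b (0.42) beside Abca8a (-2.18).

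Neighbouring genes did not always move together. In the gene order of RefSeq's GRCm38.p6 table, 35 of the measured members lay in 12 runs of adjacent members. Both runs on chromosome 11, Slc22a5 to Slc22a4 and Abca8b to Abca5, held a rise among falls. In the run on chromosome 19 from Slc22a19 to Slc22a6, 5 genes fell, and Slc22a27 (-1.33, SE 0.71, adjusted p = 0.151) and Slc22a29 (-2.44, SE 0.89, adjusted p = 0.0524) did not pass. The run of Abcb1a, Abcb1b and Abcb4 on chromosome 5 held no call. The genes of each run are close relatives in sequence, and the probe sets of Slc22a27 and Slc22a29 bear the array maker's suffix for sets that may bind other transcripts, so their values are uncertain.

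Several transporters read far from the other wild-type arrays on wild-type array 2. Of the 95 members, 13 (13.7%) lay outside the range of the other wild-type arrays there and at least 1 log2 unit from their mean, against 1.2% of all genes tested. Uptake families held 10 of them (21.7% of their genes) and export families 2 (5.13%). Slc22a29 read 10.50 there and 7.01 and 6.85 on the other wild-type arrays, Slc22a27 read 6.77 against 4.03 and 3.68, and Slc17a2 and Abcc3 were high in the same way. Slc22a7, Slc22a19, Slco1a6, Slc10a2 and Abcb1b were also higher there, by 1.02 to 2.36 above the mean of the other wild-type arrays. Slco1a1 (-2.72), Slc22a30 (-1.97), Slco3a1 (-1.12) and Slc22a22 (-1.10) were lower. A probe set shared by Slc22a30 and Slc22a29, and so left out of the tests, read 7.58, 11.30, 7.21 and 6.69, 5.18, 5.52, with wild-type array 2 high as for Slc22a29 and not low as for Slc22a30. On the other 5 arrays, 0 to 7 members met the same rule within their group. The array that stood apart is the same 1 that read high for Xist, and whether sex accounts for these values was not tested.

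**Figure D4:**
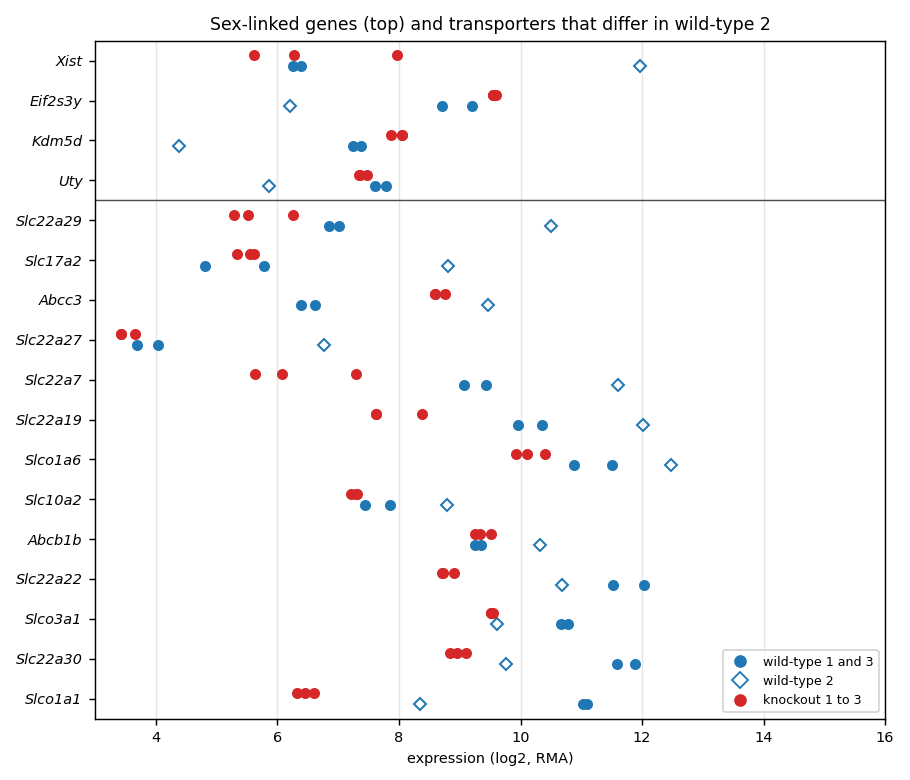
Log2 expression on each array (horizontal axis) of 4 sex-linked genes above the line and, under it, of the 13 transporters whose value on wild-type array 2 lies at least 1 log2 unit from the mean of the other wild-type arrays; blue circles are wild-type arrays 1 and 3, the open diamond is wild-type array 2 and red circles are the knockout arrays. Xist and the 9 transporters from Slc22a29 to Abcb1b read highest on wild-type array 2 among the wild-type arrays, and the 4 transporters from Slc22a22 to Slco1a1 lowest.

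Without wild-type array 2, Slc22a29 was called 2.39-fold lower (-1.25, adjusted p = 0.00818), and Slc22a27 still did not pass (-0.36, adjusted p = 0.0628). The falls of Slc22a7 and Slc22a19 shrank to -2.92 and -2.28, and those of Slc22a22 and Slc22a30 grew to 8.01-fold and 6.78-fold. Slco3a1 moved from -0.82 to -1.20 (adjusted p = 0.000105). Each of these genes kept its direction.

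**Figure D5:**
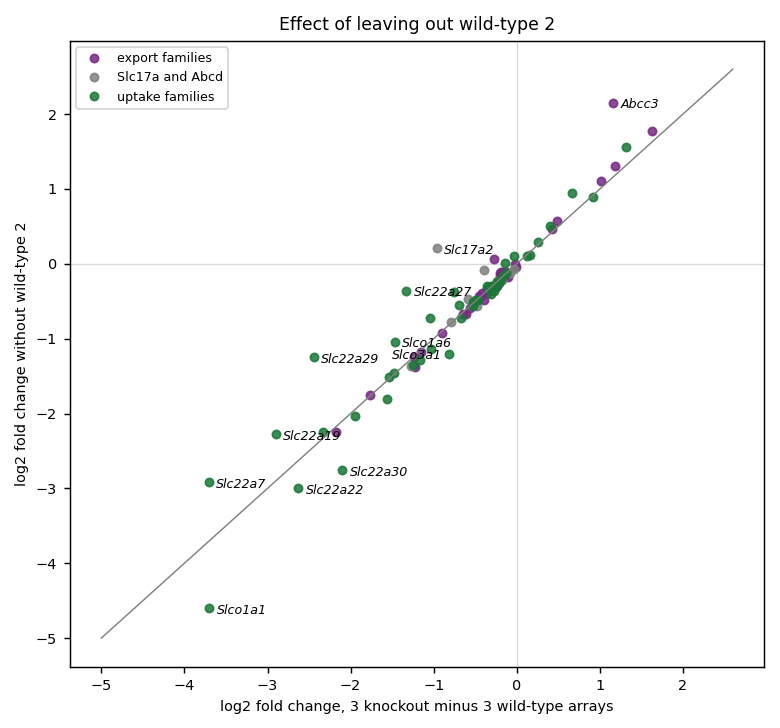
Log2 change in knockout against wild-type with all 6 arrays (horizontal axis) and without wild-type array 2 (vertical axis) for the 95 transporters, coloured by uptake, export or other family. The line marks equal values, and named genes are among those farthest from it. Slc10a2 (-0.75 to -0.37) lies as far off as some of them and is not named. Slco1a1 moves from -3.70 to -4.60, Slc22a7 from -3.71 to -2.92 and Abcc3 from 1.16 to 2.15.

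Genes that drive, anchor or regulate these transporters were counted too: 22 of 29 measured fell, 3 rose and 4 did not pass the test, where 27.7% of all genes fell and 21.6% rose. Lists such as this were chosen with earlier results known. All 10 measured carriers that set the gradients or share substrates fell. They include Slc13a3, the dicarboxylate carrier that feeds OAT exchange, which read 12.39, 12.64, 12.53 and 11.25, 10.97, 11.38 (-1.32, adjusted p = 0.000189). They also include the sodium and proton exchanger Slc9a3 (-2.39), the lactate carrier Slc5a12 (-2.74), the basolateral organic solute pair Slc51a and Slc51b (-2.23 and -1.36) and the urate carrier Slc2a9 (-0.69). All 4 scaffolds of the apical membrane fell, among them Pdzk1 (-0.94, adjusted p = 0.000179), which anchors urate and anion carriers. Slc34a1 and Slc5a12 are in the proximal tubule marker list as well.

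Of 15 measured nuclear receptors and transcription factors, 8 fell and 3 rose, where 27.7% and 21.6% of all genes did. Hnf4a, a regulator of tubule and liver transporters, fell (-0.60, adjusted p = 0.00104), as did the bile acid receptor Nr1h4 (-1.07, adjusted p = 0.0119), Ppara (-1.25, adjusted p = 0.000260) and Nr1h3 (-0.74, adjusted p = 0.00112), the oxysterol receptor LXR alpha. Ahr, the aryl hydrocarbon receptor, rose from 7.90, 8.08, 7.22 to 9.30, 9.52, 9.52 (1.71, adjusted p = 0.000581), and the NRF2 gene Nfe2l2 (0.54, adjusted p = 0.00198) and its partner Keap1 (0.45, adjusted p = 0.00623) rose less. The xenobiotic receptors Nr1i2 (-0.07) and Nr1i3 (-0.21) did not pass, nor did Nr5a2 or Foxo1.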

How the data were processed

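Total RNA was purified on columns, biotin-labelled and hybridised to 6 Affymetrix arrays, 3 per group, per the labels' protocols. The authors deposited 1 table of log2 expression values for 45101 probe sets, made with RMA per the submitters' processing notes; that they are log2 follows from their range (2.9 to 14.8). The RMA version is not given in the sources used here. Precision is limited by the number of arrays.

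GEO's platform annotation, which can be out of date, gave the gene of each probe set: 34945 had 1 symbol, 932 several and 9160 none, and 64 were controls. Symbols were updated by Entrez identifier through RefSeq's GRCm38.p6 gene table for 34741 of them, and 204 kept the annotation's symbol. No value was missing.

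All 18193 genes were fitted together in limma 3.58.1 under R 4.3.3 (linear model, then eBayes), without covariate or filter, two-sided, with Benjamini-Hochberg adjustment and a threshold of 0.05. A fold is 2 to the power of the log2 difference, and SE is limma's moderated standard error. The fit was tested on simulated data. The rule for named genes took the 4 called members with the largest change in each direction per family and a textbook list of 68 transporters, and 15 further members were named after their values were seen. Members, lists and motifs were chosen with earlier results of these data known. Alternatives were other probe set rules, the brighter genes alone, another prior, other normalisations, array weights, a replicate block, a stricter threshold and each array left out. Python 3.11.15, pandas 2.3.3 and matplotlib 3.10.9 made tables and plots.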

Additional observations from a re-analysis of the deposited data

How the results depend on the processing

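No probe set standing for a called member changed direction when the normalisation, prior, weights, block, threshold or arrays were changed, and no called gene did when its probe sets were averaged. Abcc5, called lower, also had a probe set called higher. The called members numbered 9 higher and 47 lower, 8 and 59 once each array was centred on its median (which moves the median change of all genes from -0.11 to -0.19), 7 and 44 after quantile normalisation, and 10 and 50 when any probe set of a gene counted, an alternative chosen after seeing the data, as were the counts of at least 2-fold changes. At an adjusted p of 0.01 the higher calls were 5 in all, 2 in uptake and 3 in export families. The falls were then 32 in all, 17 in uptake and 11 in export families. Uptake rises were 2 after quantile normalisation and 2 when only the brighter genes were tested. With 1 array left out, rises ran from 5 to 10 in all, 2 to 4 in uptake and 3 to 6 in export families. Some of these settings had fewer samples, fewer genes or a stricter threshold, and the cause of the shifts was not tested. Apart from the setting without wild-type array 2, the shares of all genes called in these settings are not given here. The shifted counts therefore cannot be told apart from shifts of the whole table.

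With the replicate block, 8 members were higher and 42 lower, and the share of all genes called there is not given here either. Whether the numbers pair the samples is not given in the labels. Deviations of arrays of the same number from their group means correlated at -0.10, -0.13 and -0.13 across genes. Deviations within a group are not independent of each other, so these values cannot settle pairing.

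Among the members named, the reversals were in ones that did not pass the test. Under quantile normalisation Abcb11 was at 0.05 and Slc17a1 at 0.08. With 1 array left out, Abcb1b ran from -0.47 to 0.06, Abcb4 from -0.08 to 0.06, Abcg1 from -0.09 to 0.09, Slc17a1 from -0.07 to 0.03, Slc17a2 from -1.79 to 0.21 and Slc17a5 from -0.12 to 0.01. RMA gives no signal over background, so dim members are limited most.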
